A study of Mus musculus with 30 samples.

Results

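The 145 genes described here were close to their Serum/LIF level after 3 h in galactose medium and well above it after 24 h. They were chosen from 52630 genes of an RNA-seq time course of E14tg2a mouse embryonic stem cells (ESCs), an established line. Counts were expressed as CPM (the share of the library total, scaled to 1000000 counts), and the mean CPM of the 3 libraries of each time was put on a log2(CPM + 0.5) scale. A member had a largest mean of at least 1 CPM, a 24 h mean at least 0.9 above Serum/LIF on that scale, and a 3 h mean within 0.4 of Serum/LIF. Of 13646 genes with a mean of 1 CPM or more, 390 passed the 24 h threshold. Of these, 236 were already 0.4 or more higher at 3 h, 7 were 0.4 or more lower, and 147 lay between. Ripply3, S100a1, S100a13, Tfcp2l1 and Tbx3 were left out by name, and 2 of these 5 had passed the thresholds. The time course therefore chose the members, and its values for them are given as a description without a test.

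All libraries came from the same cell line grown with leukaemia inhibitory factor (LIF). In the time course, cells were kept in Serum/LIF (labelled 0 h, although the treatment notes give 24 h in that medium) or moved for 3, 9 or 24 h to EMM (Enhanced Metabolic Media), the same medium with galactose in place of glucose and pyruvate, with 3 libraries in each of 4 groups. If the control was taken at 0 h, medium and culture time cannot be told apart in the time course. In a separate passage experiment, cells were kept in Serum/LIF, in EMM or in 2i/LIF (LIF with inhibitors of the MEK and GSK3 kinases) for 10 passages (P10) or 20 passages (P20), with 3 libraries in each of 6 groups. Library totals were 24074132 to 35301962 counts in the time course and 6944918 to 27912959 in the passage experiment, so low members were measured less precisely after passaging.

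Galactose enters glycolysis slowly, so cells given galactose in place of glucose depend more on oxidation of glutamine, fatty acids and other fuels in mitochondria. mESCs in Serum/LIF are a mixed population that moves between a naive state and states primed for embryonic or extraembryonic lineages, whereas 2i/LIF holds cells closer to the naive state. The pluripotency factor Pou5f1 marked every group as ESCs, with group means of 961 to 1090 CPM in the time course and 1080 to 1750 CPM after passaging.

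**Figure D1:**
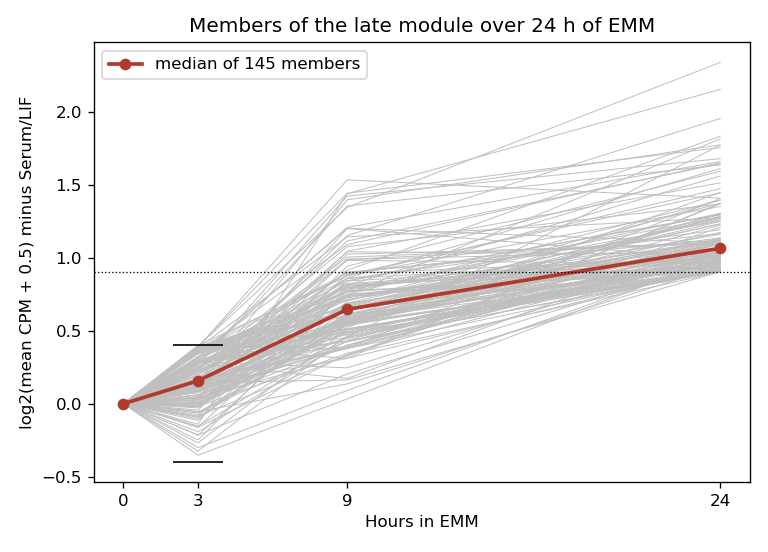
Change of the 145 members from Serum/LIF on the log2(CPM + 0.5) scale (vertical axis) against hours in EMM (horizontal axis), from group means of 3 libraries. Each grey line is a member and the red line is the median of the members (0.16 at 3 h, 0.65 at 9 h and 1.07 at 24 h); the dotted line marks the 0.9 threshold at 24 h and the short bars mark ±0.4 at 3 h.

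Most of the members were already above the Serum/LIF level at 9 h, so "late" here means after 3 h. The median difference from Serum/LIF on the log2 scale was 0.16 at 3 h (-0.35 to 0.40), 0.65 at 9 h (0.033 to 1.54) and 1.07 at 24 h (0.90 to 2.34). The libraries of each time lay close together, with member medians of 0.147 to 0.162 at 3 h, 0.641 to 0.677 at 9 h and 1.09 to 1.11 at 24 h. At 9 h, all 3 libraries exceeded all 3 Serum/LIF libraries for 137 members (27% of all genes of 1 CPM or more), and at 24 h for all 145 (30.7% of all genes). The rule used the Serum/LIF libraries of both comparisons and the 24 h libraries, so nothing is read from these shares. The 9 h difference was a median of 57.7% of the 24 h difference, and for 5 members the 9 h mean was at or above the 24 h mean. At 3 h the difference was above 0 for 115 members and below 0 for 30. The median of all genes of 1 CPM or more was -0.08 at 3 h with library totals and -0.01 with TMM scaling.

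The members spanned a wide range of abundance. Their mean at 24 h was 1.10 to 502 CPM with a median of 9.75 CPM, and 49 members stayed under 5 CPM while 16 reached 100 CPM or more. Protein-coding genes made up 128 of them, beside 6 lincRNAs, 4 antisense RNAs, 4 processed transcripts, 2 pseudogenes and 1 mitochondrial tRNA. Per kilobase of exon, the 24 h level ran from 0.071 CPM for Grin2a to 204 CPM for Lgals1. Members at the edge of the rule were Lrrc31 and Rnase4 (0.90 at 24 h), with Med12l (0.90) and Gm37829 (0.90) falling just short before rounding. At 3 h, Krt7 and Clic5 (0.40 each) were just inside and Scara5 and Gm21781 (0.40 each) just outside. The lowest members were Nr2f2 at 1.10 CPM and Ppp1r14d at 1.22 CPM, and Cacna2d3 at 0.958 CPM and Edil3 at 0.924 CPM were left out.

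Several members lie close together on the mm10 genome, whatever genes may lie between them. Bend6 and Dst are 409 bp apart, Klf15 and Aldh1l1 are 11189 bp apart, Ank1 and Nkx6-3 are 2772 bp apart, Prrx2 and Ptges are 8220 bp apart, Fras1 and Anxa3 are 8611 bp apart and Fbxo4 and Oxct1 are 46810 bp apart. Promoters of 100 members were found in RefSeq (GRCm38.p6), and each of their 133 promoter windows held the 250 bases before and 50 bases after a gene start. Searched on both strands, the E-box CACGTG was in 8.27% of member promoters and 7.15% of all 32851 promoters. The AP-1 motif TGACTCA was in 4.51% against 5.2%, the Tcf/Lef motif ATCAAAG in 5.26% against 3.73%, the GATA motif AGATAA in 6.02% against 11.2%, and the NF-Y motif CCAAT in 33.1% against 37.4%. The STAT motif TTCCNGGAA was in 0 member promoters and in 1.15% of all. The 250 bases before the start are printed for 4 members, with these motifs in capitals (ATTGG is CCAAT on the other strand). Klf15 was chosen for its promoter, so its motifs are an example and not a sample of the members. Klf15, Neo1 and Dock10 were all higher in EMM and 2i/LIF than in Serum/LIF at P10. Dock10 had the largest rise among the members in EMM against Serum/LIF at P10, and Gsn turned lower in passaged EMM cells.
Klf15, chr6:90462326-90462575, plus strand: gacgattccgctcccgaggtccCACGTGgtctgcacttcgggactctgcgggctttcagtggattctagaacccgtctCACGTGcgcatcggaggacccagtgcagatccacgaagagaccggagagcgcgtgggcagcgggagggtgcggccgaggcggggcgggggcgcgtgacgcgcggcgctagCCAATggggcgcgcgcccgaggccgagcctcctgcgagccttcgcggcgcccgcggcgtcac
Neo1, chr9:59036442-59036691, minus strand: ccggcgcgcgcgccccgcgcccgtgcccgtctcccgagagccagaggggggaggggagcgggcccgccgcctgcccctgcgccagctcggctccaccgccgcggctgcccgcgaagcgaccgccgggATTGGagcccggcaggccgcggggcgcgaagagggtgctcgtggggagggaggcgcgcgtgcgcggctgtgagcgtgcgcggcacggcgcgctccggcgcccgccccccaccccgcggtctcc
Dock10, chr1:80758554-80758803, minus strand: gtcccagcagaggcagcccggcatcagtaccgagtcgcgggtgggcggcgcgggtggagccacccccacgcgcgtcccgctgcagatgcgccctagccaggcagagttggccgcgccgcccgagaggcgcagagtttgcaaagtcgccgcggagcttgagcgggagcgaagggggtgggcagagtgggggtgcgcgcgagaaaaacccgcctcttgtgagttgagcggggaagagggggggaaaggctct
Gsn, chr2:35256109-35256358, plus strand: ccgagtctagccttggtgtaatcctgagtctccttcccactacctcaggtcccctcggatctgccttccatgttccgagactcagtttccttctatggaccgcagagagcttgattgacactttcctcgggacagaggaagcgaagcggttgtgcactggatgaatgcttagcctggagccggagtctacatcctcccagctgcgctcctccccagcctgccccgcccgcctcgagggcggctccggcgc
Klf15 carried 2 E-boxes and 1 CCAAT in a window of 72% GC, and Neo1 carried 1 CCAAT in a window of 83.2% GC. None of the motifs was in these letters for Dock10 (70.4% GC) or Gsn (60.8% GC).

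**Figure D2:**
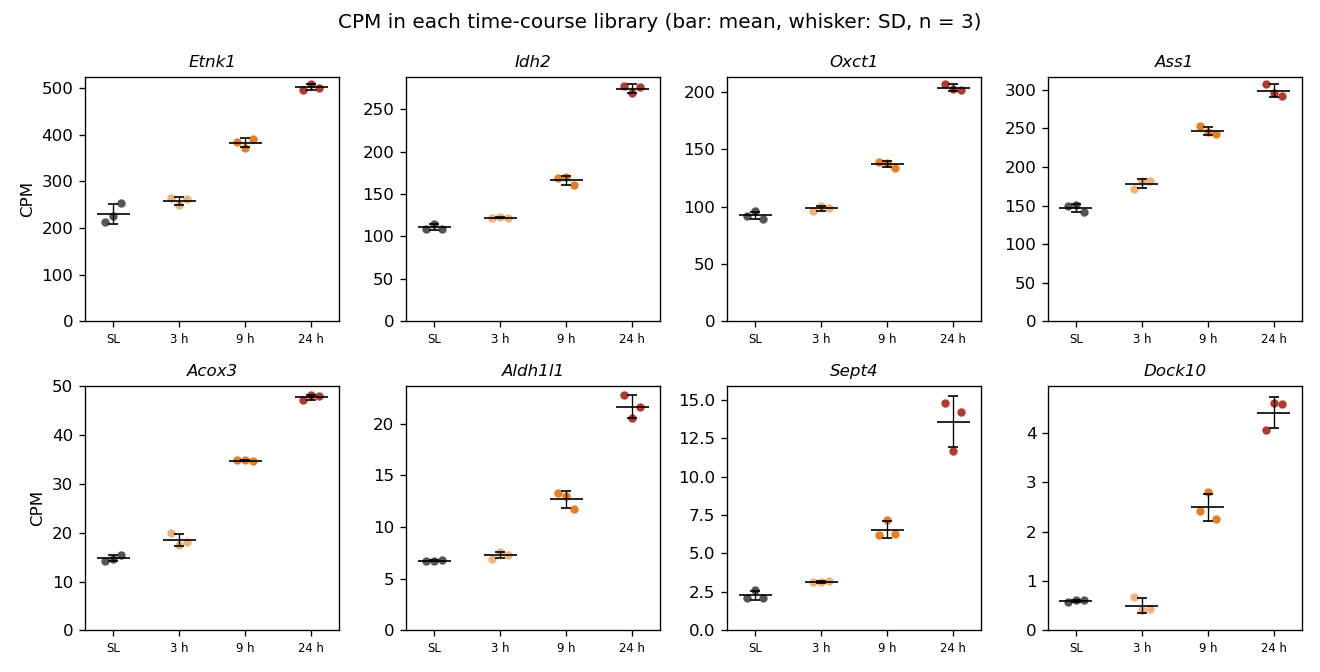
CPM (vertical axes, each from 0) of Etnk1, Idh2, Oxct1, Ass1, Acox3, Aldh1l1, Sept4 and Dock10 in Serum/LIF (0 h) and after 3, 9 and 24 h in EMM. Points are the 3 libraries of a group, horizontal bars their means and whiskers the SD; at 3 h each mean lies within 0.4 of Serum/LIF on the log2(CPM + 0.5) scale, and at 24 h all 3 libraries lie above those of every earlier time.

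The mitochondrial enzymes Idh2 and Oxct1 and the amino acid enzyme Ass1 were among the 12 most abundant members at 24 h. Idh2, the mitochondrial NADP-dependent isocitrate dehydrogenase, gave 109, 115 and 109 CPM in Serum/LIF, 121, 123 and 122 CPM at 3 h, 169, 170 and 160 CPM at 9 h, and 277, 269 and 277 CPM at 24 h. Oxct1, which lets mitochondria use ketone bodies, gave 92.1, 95.8 and 89.6 CPM in Serum/LIF, 96.5, 101 and 98.5 CPM at 3 h, and 207, 203 and 201 CPM at 24 h. Ass1, the argininosuccinate synthase of arginine synthesis, went from 147 ± 5.27 CPM in Serum/LIF to 299 ± 8.24 CPM at 24 h (SD, n = 3). Each of these genes was slightly above Serum/LIF at 3 h and had its highest libraries at 24 h. Acox3, a peroxisomal acyl-CoA oxidase, had means of 14.8 CPM in Serum/LIF, 18.5 at 3 h, 34.8 at 9 h and 47.8 CPM at 24 h. Aldh1l1, a folate enzyme of one-carbon metabolism, had means of 6.75, 7.28, 12.7 and 21.7 CPM at the same times, and Acss1, the mitochondrial acetyl-CoA synthetase, had 13.7, 17.1, 25.9 and 31.4 CPM. Etnk1, the ethanolamine kinase that starts phosphatidylethanolamine synthesis, was the most abundant member by library share, with 212, 225 and 254 CPM in Serum/LIF and 497, 509 and 501 CPM at 24 h. Sept4, a septin of the cytoskeleton, had the largest 24 h difference, from 2.12, 2.63 and 2.09 CPM to 14.8, 11.7 and 14.2 CPM.

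The passage experiment, whose values the rule did not use, was used to ask whether the same genes were high in cells kept in EMM. The members were chosen with earlier results of these data known. Of the 145 members, 141 had enough counts to be tested (Elmod1, Gm6284, Gm9888 and mt-Tc did not), 86 had at least 10 counts in every library, and 2, Gm30692 and Grin2a, had passed the count filter only through EMM, with fewer than 10 counts in every Serum/LIF and 2i/LIF library. Nr2f2 and 2810410L24Rik had fewer than 10 counts in every EMM library and were called at neither passage. Calls needed a log2 fold change beyond 1 in either direction and an adjusted p below 0.01 across 16054 genes by edgeR's quasi-likelihood test with Benjamini-Hochberg adjustment. Levels after passaging are CPM scaled by TMM, a factor that corrects for library composition, and were not set against those of the time course.

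At P10, 79 members were called higher in EMM than in Serum/LIF (56% of those tested, against 6.67% of all genes tested) and 14 were called lower (9.93%, against 10.5%). The median log2 fold change over the members tested was 1.20, with a range of -6.96 to 6.36. At P20, 46 members were called higher (32.6%, against 3.44%) and 11 lower (7.8%, against 6.19%), with a median of 0.74 and a range of -3.09 to 3.52. The median of all genes was between -0.0065 and 0.0199 in every comparison of the passage groups. The share called higher was thus above that of all genes at both passages, and the share called lower was near it. By the adjusted p alone, 84 of the 141 members were higher and 16 lower at P10 (18.7% and 18.7% of all genes), and 68 were higher and 13 lower at P20 (13.6% and 12.5% of all genes). One call at each passage, Gm30692 at P10 and Grin2a at P20, was of a gene that had passed the filter through EMM.

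**Figure D3:**
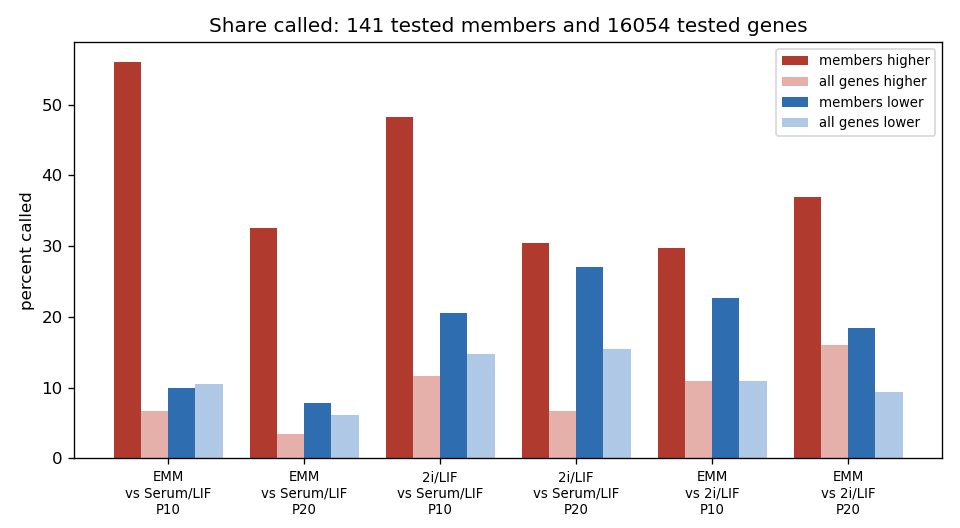
Percentage of genes called higher or lower (log2 fold change over 1 in size, adjusted p under 0.01, edgeR) among the 141 members tested and among all 16054 genes tested, for each comparison of passage groups. At P10, 56% of members and 6.67% of all genes were higher in EMM than in Serum/LIF; the bars carry no error because each is a share of one list.

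The same 38 members were called higher in EMM at both passages (27% of those tested, against 1.6% of all genes), 40 at P10 and not P20 (28.4%, against 4.96%), and 7 at P20 and not P10 (4.96%, against 1.68%). Those 7 were A830018L16Rik, Gm35040, Grin2a, Lrrc15, Mindy2, Mroh1 and Vwa5b2, of which Mroh1 and Vwa5b2 share exon sequence with genes on the other strand. Another 4 members were called lower at both passages (2.84%, against 3.51%), 9 were lower at P10 alone (6.38%, against 6.8%) and 6 at P20 alone (4.26%, against 2.57%). Nkx6-3 was called higher at P10 and lower at P20, Fras1 the reverse, and 35 members were called at neither passage (24.8%, against 78.6%).

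**Figure D4:**
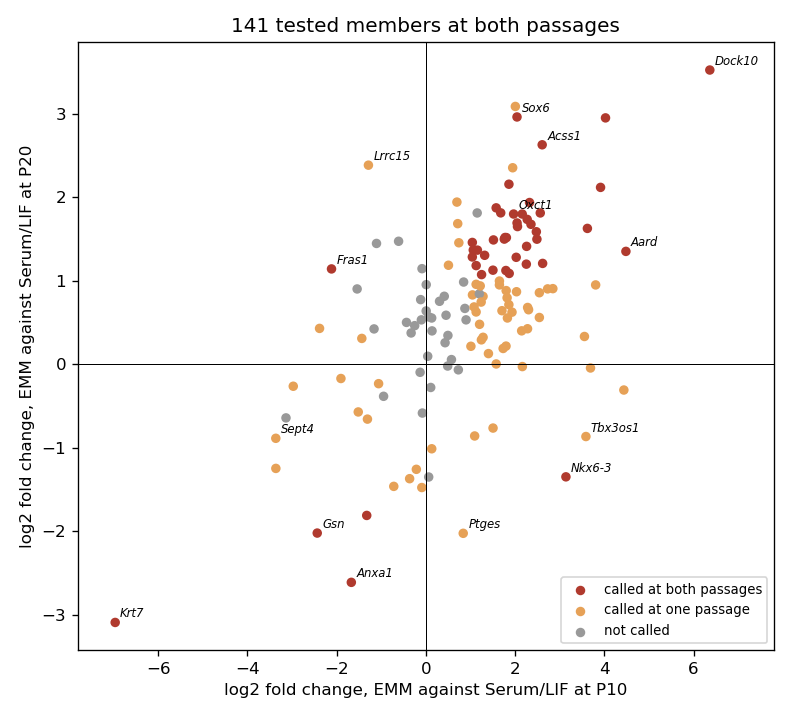
Log2 fold change of EMM against Serum/LIF at P20 (vertical axis) against that at P10 (horizontal axis) for the 141 members tested. Red points were called at both passages, orange at one and grey at neither; 38 red points lie above 1 on both axes and 4 below -1, and Nkx6-3 and Fras1 have opposite signs.

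The members were then grouped by role, assigned after their values were seen, and the counts of each group stand against the shares of all genes already given (6.67% higher and 10.5% lower at P10, 3.44% and 6.19% at P20 for EMM, and 11.6% and 14.8%, then 6.77% and 15.5%, for 2i/LIF). The 5 members of mitochondrial, peroxisomal and carbon metabolism (Idh2, Oxct1, Acss1, Acox3 and Slc16a9) were all called higher in EMM at both passages. Oxct1 gave 95.5, 95.2 and 78.4 CPM in Serum/LIF at P10 against 347, 371 and 334 CPM in EMM, and 56.8, 61.2 and 59.9 CPM against 205, 200 and 215 CPM at P20. The groups did not overlap at either passage, and the log2 fold change was 1.97 ± 0.10 (SE, edgeR adjusted p = 3.64e-11) at P10 and 1.80 ± 0.10 (edgeR adjusted p = 5.8e-10) at P20. Acss1 gave 16.4, 17.5 and 16.6 CPM against 95.3, 96.4 and 117 CPM at P10, and 11.8, 13.5 and 7.86 CPM against 68.3, 65.8 and 74.2 CPM at P20. Its log2 fold changes of 2.61 ± 0.16 (edgeR adjusted p = 4.05e-10) and 2.63 ± 0.16 (edgeR adjusted p = 1.84e-09) were the largest of the group. Idh2 gave 298, 311 and 314 CPM in EMM against 87.8, 87.4 and 77.8 CPM in Serum/LIF at P10, and 168, 170 and 180 CPM against 83.8, 83 and 77.2 CPM at P20. Its difference was 1.87 ± 0.07 on the log2 scale at P10 and 1.09 ± 0.07 at P20 (edgeR adjusted p = 2.74e-09), and the P20 value was 0.996 with library totals alone, which ended the call. Acox3 was higher by 2.49 ± 0.16 and 1.50 ± 0.16 (SE), and Slc16a9, a monocarboxylate transporter family member, by 1.51 ± 0.24 and 1.49 ± 0.22. All 5 were also called higher in 2i/LIF than in Serum/LIF at P10, and 3 of the 5 at P20.

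All 5 members grouped under amino acid and one-carbon metabolism (Ass1, Aldh1l1, Cdo1, Qpct and Slc6a7) were called higher in EMM at P10, and 2 of them at P20. The shares of all genes were 6.67% and 3.44%. Aldh1l1 gave 35.7, 40 and 47.9 CPM in EMM against 7.85, 9.09 and 6.89 CPM in Serum/LIF at P10. At P20 it gave 22.2, 20.9 and 26.4 CPM against 7.74, 7.78 and 6.01 CPM, a log2 fold change of 1.68 ± 0.25 (edgeR adjusted p = 3.73e-05). In 2i/LIF it stood higher still, at 153, 131 and 107 CPM at P10 and 143, 99.5 and 60.8 CPM at P20. Ass1 was higher in EMM at P10 (330, 328 and 337 CPM against 179, 171 and 144 CPM, log2 fold change 1.01 ± 0.09, edgeR adjusted p = 3.5e-08). That call lay at the fold threshold and was lost in 7 alternatives (0.91 to 0.99), among them DESeq2, library totals alone, both other count filters and leaving out Serum/LIF replicate 3. At P20 Ass1 gave 244, 255 and 258 CPM in EMM and 216, 221 and 216 CPM in Serum/LIF, a difference of 0.21 ± 0.09 on the log2 scale that did not pass the test. Cdo1, the cysteine dioxygenase, chosen after its values were seen, was higher by 2.32 ± 0.14 at P10 and 1.94 ± 0.14 at P20, and in 2i/LIF by 3.73 ± 0.14 and 2.80 ± 0.14 (SE).

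Of 6 enzymes of redox chemistry and detoxification, 5 were called higher in EMM at P10 and 1 at P20 (6.67% and 3.44% of all genes). Nqo1, the quinone reductase and a target of the stress factor Nrf2, gave 99.9, 95.7 and 82.7 CPM in EMM against 14.6, 10.7 and 13.5 CPM in Serum/LIF at P10. At P20 it gave 30.3, 32.4 and 30.8 CPM against 18.5, 16.6 and 14.8 CPM, so the groups stayed apart while the log2 fold change went from 2.85 ± 0.14 to 0.90 ± 0.13. The P20 value passed the adjusted p (3.02e-05 by edgeR) and not the fold threshold. Among the 10 tested genes of an Nrf2 response list that holds Nqo1, 2 were called higher and 0 lower at P10 and 0 were called at P20, with medians of 0.53 and 0.37. Aox3, an aldehyde oxidase, was higher by 3.55 ± 0.24 at P10 (edgeR adjusted p = 1.61e-09) and by 0.33 ± 0.23 at P20 (edgeR adjusted p = 0.275), and Zadh2, a prostaglandin reductase, by 1.40 ± 0.18 at P10 and 0.13 ± 0.18 at P20.

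Another 4 members were grouped under phospholipid, ganglioside and prostaglandin metabolism, with Zadh2 counted among the redox enzymes above. Of these 4, 2 were called higher at P10 (6.67% of all genes). At P20, 1 was higher and 1 lower (3.44% and 6.19% of all genes). Etnk1 gave 460, 486 and 457 CPM in EMM against 171, 193 and 200 CPM in Serum/LIF at P10, and 535, 484 and 485 CPM against 200, 214 and 195 CPM at P20. Its difference was 1.32 ± 0.08 and 1.30 ± 0.08 on the log2 scale (edgeR adjusted p = 7.64e-10 and 2.75e-09), and the change between passages was -0.01 ± 0.12. Ptges, the prostaglandin E synthase, gave 8.76, 7.89 and 11.6 CPM against 5.38, 6.8 and 3.34 CPM at P10 (0.84 ± 0.28, edgeR adjusted p = 0.018). At P20 it was lower in EMM, with 2.38, 2.87 and 1.58 CPM against 6.93, 9.15 and 12.1 CPM (-2.02 ± 0.28, edgeR adjusted p = 2.31e-05).

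Receptors, ligands and adhesion molecules numbered 16. P10 calls put 8 of them above Serum/LIF and 4 below it (6.67% and 10.5% of all genes). P20 calls put 6 above and 1 below (3.44% and 6.19% of all genes). Neo1, the neogenin receptor for netrins and repulsive guidance molecules, gave 144, 128 and 134 CPM in EMM against 37.5, 41.8 and 39.5 CPM in Serum/LIF at P10, and 123, 111 and 113 CPM against 40.1, 42.2 and 38.9 CPM at P20. Its log2 fold changes were 1.77 ± 0.08 (edgeR adjusted p = 9.75e-12) and 1.52 ± 0.08 (edgeR adjusted p = 2.76e-10). Sfrp1, a secreted Wnt inhibitor, gave 126, 123 and 135 CPM against 26.8, 25.8 and 26.5 CPM at P10 and 68.2, 61.4 and 58 CPM against 49.7, 51 and 38.6 CPM at P20. The groups did not overlap at either passage, but the log2 fold change went from 2.28 ± 0.14 to 0.42 ± 0.13 (edgeR adjusted p = 0.0165 at P20). Gpr83, a G protein-coupled receptor, was at 7.11, 4.29 and 5.72 CPM in EMM and 0.433, 0.318 and 0.371 CPM in Serum/LIF at P10, and was higher by 2.12 ± 0.32 at P20 (edgeR adjusted p = 4.37e-05). Ptprm, a receptor phosphatase of cell contacts, and Gpc6, a glypican, were lower in EMM at P10 by -3.36 ± 0.57 and -1.90 ± 0.39, and were not called at P20 (-1.25 ± 0.46 and -0.17 ± 0.31).

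Transcription and chromatin genes numbered 19. P10 calls put 8 of them above Serum/LIF and 1 below it (6.67% and 10.5% of all genes). P20 calls put 3 above and 3 below (3.44% and 6.19% of all genes). Phf19, a Polycomb repressive complex subunit that binds methylated histone H3, gave 65.4, 53.8 and 57 CPM in EMM against 14.5, 13.7 and 14.7 CPM in Serum/LIF at P10, and 38.9, 37.4 and 41 CPM against 11.8, 13.3 and 11.1 CPM at P20. In 2i/LIF the same gene gave 1.21, 0.372 and 0.574 CPM at P10 and 3.92, 2.94 and 1.17 CPM at P20. Every EMM library was above every Serum/LIF library, and every 2i/LIF library was below them. Sox6, a SoxD transcription factor, was higher in EMM by 2.04 ± 0.38 at P10 and 2.96 ± 0.35 at P20 (edgeR adjusted p = 3.47e-06). Klf15, a metabolic Krüppel-like factor chosen here for its promoter, gave 58.5, 53.9 and 67.7 CPM against 13.1, 16.2 and 13.9 CPM at P10 and was higher by 1.65 ± 0.14 at P20 (edgeR adjusted p = 1.07e-07). Tead1, the Hippo pathway DNA-binding partner of Yap, was 0.13 ± 0.14 (P10) and 0.55 ± 0.14 (P20) on the log2 scale and was called at neither. Plagl1, an imprinted zinc finger gene, gave 10.3, 8.29 and 11 CPM in EMM and 12.4, 12.2 and 9.64 CPM in Serum/LIF at P10, and was lower at P20, with 4.23, 5.31 and 5.35 CPM against 11.2, 11.9 and 12.8 CPM (-1.26 ± 0.16, edgeR adjusted p = 7.44e-06). Among 18 imprinted genes that include it, P10 calls were 1 higher and 6 lower (median -0.61), and P20 calls were 2 higher and 4 lower (median -0.22).

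Of 8 members of signalling, trafficking and survival, P10 calls put 7 above Serum/LIF and 1 below (6.67% and 10.5% of all genes). P20 calls put 6 above and 0 below (3.44% and 6.19% of all genes). Dock10, a guanine nucleotide exchange factor, gave 13.1, 12 and 9.39 CPM in EMM at P10 where Serum/LIF gave 0.124, 0 and 0.296 CPM, and 3.52, 3.77 and 3.58 CPM at P20 where Serum/LIF gave 0.404, 0.229 and 0.321 CPM. Its log2 fold changes of 6.36 ± 0.43 (edgeR adjusted p = 1.4e-09) and 3.52 ± 0.38 (edgeR adjusted p = 1.46e-06) were the largest rises among the members, and the size at P10 rests on very few Serum/LIF counts. Optn, the autophagy receptor optineurin, gave 52.7, 50.8 and 53.1 CPM against 10.9, 16.7 and 15.6 CPM at P10 and 47.6, 45.5 and 51.5 CPM against 9.56, 11.1 and 11.8 CPM at P20. Pde8a, a cAMP phosphodiesterase, was higher by 3.62 ± 0.22 at P10 and 1.63 ± 0.20 at P20. Bcl2, the inhibitor of apoptosis, was the exception, with 0.464, 1.2 and 0.44 CPM in EMM against 3.03, 4.39 and 3.41 CPM in Serum/LIF at P10 (-2.38 ± 0.36, edgeR adjusted p = 2.44e-05). At P20 it gave 2.44, 2.51 and 2.79 CPM against 1.75, 1.78 and 2.25 CPM (0.43 ± 0.30, edgeR adjusted p = 0.285).

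Of 10 channels, pumps and synaptic genes, P10 calls put 6 above Serum/LIF and 1 below (6.67% and 10.5% of all genes). P20 calls put 3 above and 0 below (3.44% and 6.19% of all genes). Atp1b1, the sodium pump beta subunit, was higher at P10 by 1.28 ± 0.07 and at P20 by 0.32 ± 0.07 on the log2 scale, under the fold threshold, and it overlaps exons of Nme7 on the other strand. Cplx1, a complexin of the synaptic fusion machinery, gave 7.47, 7.09 and 6.31 CPM in EMM against 1.54, 2.35 and 3.19 CPM at P10, and 8.82, 8.28 and 7.58 CPM against 2.62, 2.43 and 1.6 CPM at P20. Grin2a, an NMDA receptor subunit, was at 0.202, 0.0458 and 0.0802 CPM in Serum/LIF at P20, no more than 3 counts in each library, and EMM gave 0.596, 1.11 and 1.07 CPM, at least 4.79-fold higher against that floor. Because it passed the filter through EMM alone, this value is a description, and the call was lost without Serum/LIF replicate 2 or 3 (edgeR adjusted p = 0.0102 to 0.019). The 50 tested members with no role assigned included 25 called higher and 3 called lower at P10 (6.67% and 10.5% of all genes). At P20 they included 15 and 0 (3.44% and 6.19% of all genes). Among them, Aard gave 175, 219 and 240 CPM in EMM against 10.6, 8.52 and 9.19 CPM in Serum/LIF at P10 (4.48 ± 0.12, edgeR adjusted p = 1.65e-14). At P20 Aard gave 50.6, 47.8 and 54 CPM against 20.6, 18.3 and 21 CPM (1.35 ± 0.11, edgeR adjusted p = 3.64e-08). The lincRNA Gm14221 was higher by 4.03 ± 0.43 and 2.95 ± 0.42 on the log2 scale.

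**Figure D5:**
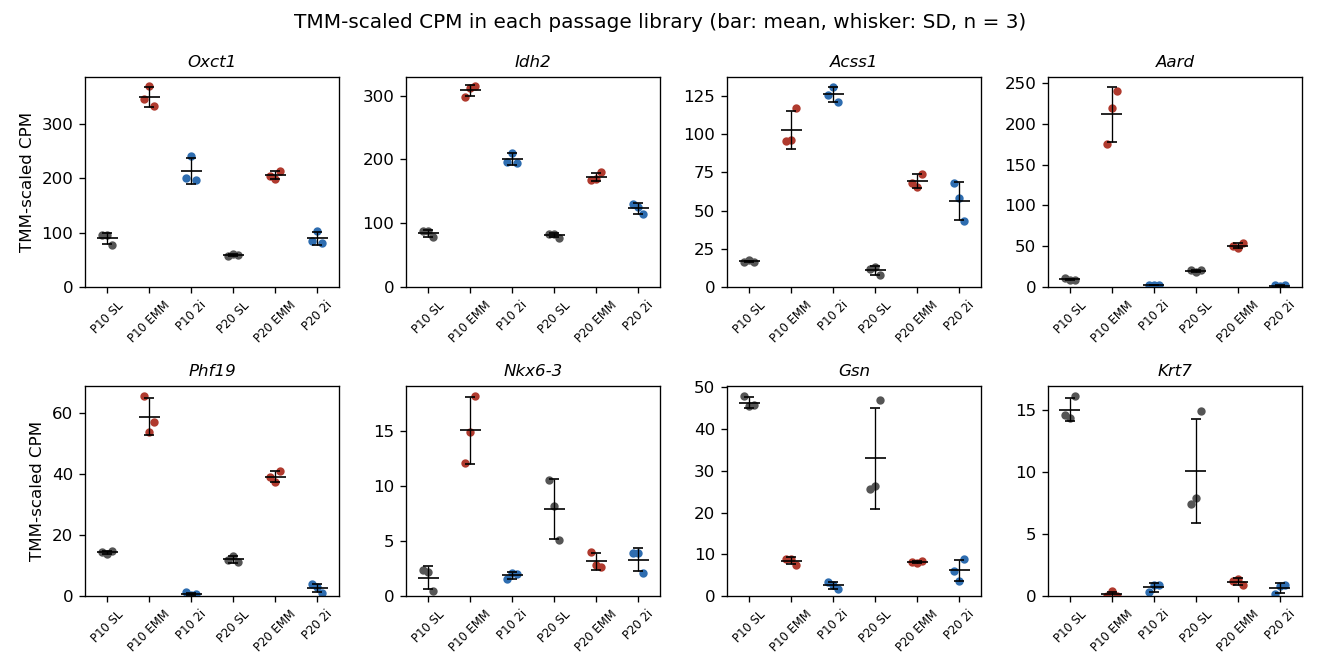
TMM-scaled CPM (vertical axes, each from 0) of Oxct1, Idh2, Acss1, Aard, Phf19, Nkx6-3, Gsn and Krt7 in Serum/LIF, EMM and 2i/LIF at P10 and P20. Points are the 3 libraries of a group, horizontal bars their means and whiskers the SD; Oxct1, Idh2, Acss1, Aard and Phf19 were above Serum/LIF in every EMM library at both passages, and Gsn and Krt7 below.

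Cytoskeletal genes, annexins and keratins included 3 of the 4 members that were lower in EMM at both passages. Of these 18, EMM cells had 8 above Serum/LIF and 4 below at P10 (6.67% and 10.5% of all genes). At P20 they had 4 above and 6 below (3.44% and 6.19% of all genes). In 2i/LIF, 9 of the 18 were lower at each passage (14.8% and 15.5% of all genes). Krt7, a keratin of simple epithelia and trophectoderm, had 3.12, 2.59 and 3.33 CPM in Serum/LIF and 5.84, 5.68 and 6.81 CPM after 24 h in EMM. At P10 it gave 0, 0.4 and 0 CPM in EMM against 14.6, 14.4 and 16.1 CPM in Serum/LIF, and at P20 1.19, 1.4 and 0.883 CPM against 7.41, 7.92 and 14.9 CPM (-3.09 ± 0.38, edgeR adjusted p = 5.73e-06). The P10 estimate of -6.96 ± 0.59 rests on 1 EMM library with any count. Gsn, the actin-severing protein gelsolin, gave 8.96, 8.99 and 7.49 CPM in EMM against 48, 45.5 and 45.7 CPM at P10, and 8.05, 7.85 and 8.37 CPM against 25.7, 26.4 and 47 CPM at P20 (-2.43 ± 0.26 and -2.02 ± 0.25). Anxa1, a calcium-dependent phospholipid-binding annexin, gave 9.32, 10.4 and 8.81 CPM against 31.7, 28.7 and 30.5 CPM at P10, and 5.07, 4.63 and 5.39 CPM against 25.2, 24.5 and 42.8 CPM at P20. No EMM library of these 3 genes reached the lowest Serum/LIF library at either passage. The homeobox gene Prrx2 was the other member lower at both passages, by -1.32 ± 0.26 at P10 (edgeR adjusted p = 0.000393) and -1.81 ± 0.25 at P20 (edgeR adjusted p = 1.95e-05).

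The annexins did not move together. Anxa3 was lower in EMM at P20 (10.5, 10.2 and 12.4 CPM against 31.7, 29.4 and 30.2 CPM), and Anxa5, chosen after its values were seen, was lower by -1.01 ± 0.22 at P20 (edgeR adjusted p = 0.00162), a call lost without Serum/LIF replicate 3 (-0.79) and without EMM replicate 1 (-0.98) or 2 (-0.97). Anxa2, also chosen after its values were seen, was higher in EMM, at 219, 227 and 212 CPM against 108, 110 and 102 CPM at P10 and 189, 184 and 208 CPM against 75.9, 78.5 and 84.6 CPM at P20. Its P10 difference of 1.04 ± 0.24 lay at the fold threshold and was not called with library totals alone (0.94), without a filter (0.97) or with at least 10 counts in every library (0.96). Sept4, first by 24 h difference, was lower at P10 with 1.08, 0.4 and 0.587 CPM against 8.28, 8.58 and 6.75 CPM (-3.36 ± 0.33, edgeR adjusted p = 1.32e-07), and at P20 gave 2.38, 2.29 and 2.14 CPM against 3.57, 4.9 and 4.09 CPM (-0.89 ± 0.27, edgeR adjusted p = 0.0149). Lgals1, the galectin with the highest level per kilobase at 24 h, was 0.95 lower on the log2 scale at P10 (-0.95 ± 0.13) and -0.38 ± 0.13 at P20, within the fold threshold, and was called lower in 2i/LIF at both passages. Gas7, a growth-arrest gene of the actin cytoskeleton, went the other way at P10, with 34.7, 34.5 and 36.4 CPM in EMM against 6.43, 4.2 and 5.26 CPM. Mylpf, a myosin light chain, was higher by 1.24 ± 0.14 at P10 and by 0.29 ± 0.13 at P20, and Dst, a cytolinker, was called in neither (0.14 ± 0.19 and 0.40 ± 0.19).

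Most tested trophectoderm and fibroblast markers were called lower in EMM at each passage, like the falling members. In bulk RNA, fewer cells of a type and less RNA per cell cannot be told apart. Among 16 trophectoderm genes, 14 tested and Krt7 included, 0 were higher and 8 lower in EMM at each passage, with medians of -2.19 and -1.65. Krt8 was at a mean of 345 CPM in Serum/LIF and 22.2 CPM in EMM at P10 and Cdx2 at 3.83 and 0.301 CPM. Some genes of the list changed little or were higher in EMM at a passage. Tead4 had means of 11.8 and 20.8 CPM at P10 and 13.8 and 12.5 CPM at P20. Tfap2c had 53.8 and 18.7 CPM, then 54.7 and 61.5 CPM. Eomes had 10.7 and 9.75 CPM, then 9.71 and 8.39 CPM, and Tfap2a 1.17 and 1.19 CPM, then 0.869 and 0.999 CPM. Without Krt7 the summed level of this list was 718 to 853 CPM in Serum/LIF and 90 to 103 CPM in EMM at P10, and 437 to 558 CPM against 146 to 150 CPM at P20. Most of the Serum/LIF sum came from keratins at both passages. Means of Krt8, Krt18 and Krt19 were 345, 198 and 134 CPM there at P10, against 22.2, 8.12 and 6.99 CPM in EMM. At P20 they were 185, 112 and 82.6 CPM against 23.9, 14.8 and 20.6 CPM. In the time course the same sum was 294 to 306 CPM in Serum/LIF and 470 to 486 CPM at 24 h, and most of it came from Krt8 (means of 75.4 and 130 CPM), Krt18 (69 and 128 CPM), Krt19, Tead4 and Tfap2c. Genes of the list at lower levels went different ways, with means of 0.962 and 3.93 CPM for Gata3, 2.39 and 4.47 CPM for Gata2, 1.26 and 2.08 CPM for Tfap2a, 2.44 and 1.15 CPM for Cdx2, 5.49 and 0.863 CPM for Tmem54 and 4.17 and 4.05 CPM for Hand1. Of 8 tested fibroblast genes, 6 were lower in EMM at each passage, and 1 was higher at P10 and 0 at P20. The 1 higher at P10 was Thy1 (means of 8.98 and 19.6 CPM). Their whole sum overlapped between the media, at 898 to 1010 CPM in Serum/LIF and 841 to 1090 CPM in EMM at P10 and 888 to 1380 CPM against 858 to 1020 CPM at P20. It was dominated by Fn1, which had means of 741 and 918 CPM at P10 and 736 and 900 CPM at P20 and was called at neither passage (edgeR adjusted p = 0.113 and 0.161). The sum without Fn1 was 186 to 221 CPM in Serum/LIF and 22.9 to 26.9 CPM in EMM at P10, and 286 to 547 CPM against 28.6 to 31.4 CPM at P20. Col1a1 was at a mean of 121 CPM against 0.694 CPM at P10, and Postn had means of 0.935 and 1.56 CPM in Serum/LIF at P10 and P20 and was at 0 in every EMM library of these passages. The third Serum/LIF library at P20 was the one at 547 CPM and also the highest for Krt7, Gsn, Anxa1 and Anxa5. Without it the P20 differences were -2.71 for Krt7, -1.69 for Gsn and -2.31 for Anxa1, which stayed past the threshold, and -0.79 for Anxa5 (edgeR adjusted p = 0.0147), which did not. The summed level of 16 primitive endoderm genes was 115 to 154 CPM in Serum/LIF and 66.9 to 79.9 CPM in EMM at P10, and 71.7 to 97.2 CPM against 138 to 159 CPM at P20. Of 12 tested, 1 was higher and 2 lower at P10 (median -0.67), then 2 higher and 1 lower (median 0.29). The part of these cell types in the members' differences was not tested.

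Between P10 and P20, the log2 difference of EMM from Serum/LIF moved down more often than up. By the interaction test (the P20 difference minus the P10 difference), 26 members moved down (18.4% of those tested, against 3.34% of all genes tested) and 8 moved up (5.67%, against 5.06%), with a median of -0.38. Among those that moved down were Aard (-3.13 ± 0.16, edgeR adjusted p = 1.94e-10), Sfrp1 (-1.85 ± 0.19, edgeR adjusted p = 1.42e-06), Pde8a (-1.99 ± 0.30, edgeR adjusted p = 8.42e-05) and Nqo1 (-1.94 ± 0.19, edgeR adjusted p = 6.67e-07). Nkx6-3, a homeobox gene, changed sign, with 12.1, 14.9 and 18.2 CPM in EMM against 2.35, 2.16 and 0.445 CPM in Serum/LIF at P10, and 4.05, 2.83 and 2.6 CPM against 10.6, 8.15 and 5.13 CPM at P20. The Serum/LIF level of Nkx6-3 was itself higher at P20 than at P10 in every library, and the P20 difference of -1.35 ± 0.35 lost its call without EMM replicate 2 or 3 or Serum/LIF replicate 1 or 2 (-1.33 to -1.11, edgeR adjusted p = 0.0168 to 0.0344). Its time-course means were 52.3 CPM in Serum/LIF and 110 CPM at 24 h.

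Of the 8 members whose difference rose, Fras1, an extracellular matrix protein of basement membranes, turned from 1.91, 2 and 1.17 CPM in EMM against 5.81, 9.28 and 7.78 CPM at P10 to 9.54, 8.18 and 9.67 CPM against 3.57, 4.53 and 4.25 CPM at P20 (interaction 3.25 ± 0.37, edgeR adjusted p = 4.68e-06). Its neighbour Anxa3 was lower in EMM by -0.72 ± 0.12 at P10 and -1.46 ± 0.13 at P20. Lrrc15 rose by 3.67 ± 0.54, to 11.2, 9.11 and 9.86 CPM in EMM against 1.68, 2.65 and 1.2 CPM at P20. The rises of Krt7 (3.87 ± 0.83), Sept4 (2.48 ± 0.43), Mbp (2.71 ± 0.57) and Bcl2 (2.81 ± 0.47) were of genes that were lower in EMM at P10, and that of Krt7 lost its call without EMM replicate 1 of P10 (2.86, edgeR adjusted p = 0.018). Pax6, a neural and eye transcription factor, gave 0.464, 0.699 and 1.03 CPM in EMM against 1.42, 0.827 and 3.71 CPM at P10 and 6.86, 5.42 and 5.49 CPM against 3.97, 2.93 and 2.57 CPM at P20. Only its interaction passed the test (2.44 ± 0.64, edgeR adjusted p = 0.00851), since neither passage did alone, and it lost its call without any of several single libraries and with the replicate number as a block (1.64 to 2.61, edgeR adjusted p = 0.0107 to 0.0387). Among the 7 tested mesoderm and neural genes that include Pax6, EMM had 2 above Serum/LIF and 3 below at P10, then 1 above and 2 below at P20.

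Many of the members were also higher in 2i/LIF than in Serum/LIF. Against Serum/LIF, 68 members were higher (48.2%, against 11.6% of all genes) and 29 lower (20.6%, against 14.8%) in 2i/LIF at P10, with a median of 0.96. At P20, 43 were higher (30.5%, against 6.77%) and 38 lower (27%, against 15.5%), with a median of 0.12. That median was unstable, at 0.059 to 0.24 without single libraries (0.24 without 2i/LIF replicate 3 and 0.24 without Serum/LIF replicate 1), 0.0018 with library totals alone and 0.54 with at least 10 counts in every library. The last setting leaves out members with fewer than 10 counts in any 2i/LIF library, such as Cplx1. Since EMM and 2i/LIF shared the Serum/LIF libraries, the counts stand side by side. At P10, 49 members were higher in both media (34.8%, against 2.73% of all genes), and at P20 18 were (12.8%, against 0.492%). Neo1, Acox3, Acss1 and Aldh1l1 were of this kind. Neo1 gave 134, 149 and 164 CPM in 2i/LIF at P10 and 120, 126 and 128 CPM at P20, and its EMM level differed from that by -0.14 ± 0.08 and -0.11 ± 0.08 on the log2 scale. The media also parted. At P10, 8 members were higher in EMM and lower in 2i/LIF than in Serum/LIF (5.67%, against 0.667%) and at P20 10 were (7.09%, against 1.08%), Aard, Anxa2, C2, Cplx1 and Phf19 at both. For Anxa2 the 2i/LIF call at P20 was lost without 2i/LIF replicate 3 (-0.83). Another 10 were lower in both media at P10 (7.09%, against 6.26%) and 7 at P20 (4.96%, against 2.93%), Krt7, Gsn, Anxa1 and Prrx2 at both. Of 14 tested trophectoderm genes, 2 were higher and 7 lower in 2i/LIF than in Serum/LIF at P10, then 2 and 9 at P20. Of 8 tested fibroblast genes, 1 was higher and 6 lower at P10, then 0 and 7 at P20. The part of these cell types in the 2i/LIF differences was not tested. Plagl1 was high in 2i/LIF alone, at 78.3, 87.7 and 118 CPM in 2i/LIF at P10 and 110, 106 and 100 CPM at P20, far above both other media.

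Compared directly, 42 members were higher in EMM than in 2i/LIF (29.8%, against 11%) and 32 lower (22.7%, against 11%) at P10, and 52 higher (36.9%, against 16%) and 26 lower (18.4%, against 9.39%) at P20. The 13 members higher in EMM than in both Serum/LIF and 2i/LIF at both passages (9.22%, against 0.704%) were Dock10, Gpr83, Phf19, Cplx1, Optn, C2, Kitl, Aard, Fbxo27, Ryr2, Fbxo4, Anxa2 and Ptgr1, where Kitl, Fbxo27, Ryr2, Fbxo4 and Ptgr1 were named for completeness of the count. The smallest log2 fold change across these comparisons was 1 for Ptgr1 and 1.04 for Anxa2, both at the fold threshold. The P10 call of Anxa2 against Serum/LIF was lost with library totals alone (0.94). Aard gave 2.41, 2.23 and 2.4 CPM in 2i/LIF at P10 and 1.96, 1.71 and 1.96 CPM at P20, so that EMM was above it by 6.48 ± 0.14 and 4.78 ± 0.15 on the log2 scale. C2, a complement component whose exons overlap those of Zbtb12 on the other strand, gave 7.62, 8.49 and 10.6 CPM in EMM, 2.66, 2.92 and 1.93 CPM in Serum/LIF and 1.01, 1.49 and 0.626 CPM in 2i/LIF at P10. Cplx1 had 0, 0 and 0.104 CPM in 2i/LIF at P10, which put EMM at least 28.3-fold higher against a floor of 3 counts per library. Optn was 1.54 ± 0.15 above 2i/LIF at P10 and 2.31 ± 0.16 at P20.

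In 2i/LIF at P20 the genes of chromosomes 6 and 8 were shifted as a whole, with median log2 differences from Serum/LIF of 0.33 and 0.45 over all tested genes of each. Of the tested members, 6 lie on chromosome 6, Aldh1l1, Etnk1 and Klf15 among them, and 7 on chromosome 8, Nqo1, Sfrp1 and Nkx6-3 among them. Without the members of these chromosomes, 37 of 128 tested members were higher and 37 lower in 2i/LIF at P20, with a median of 0.06. The part of this shift in the 2i/LIF values of single genes was not tested.

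The genes that passed the 24 h threshold but were already higher at 3 h give a point of comparison, and their values were not tested against those of the members. Of 223 such genes tested, 124 (55.6%, against 6.67% of all genes) were called higher in EMM than in Serum/LIF at P10. Another 18 (8.07%, against 10.5%) were called lower, and the median was 1.20. At P20, 71 (31.8%, against 3.44%) were higher and 14 (6.28%, against 6.19%) lower, with a median of 0.64. In 2i/LIF, 78 of them (35%, against 11.6% of all genes) were higher and 59 (26.5%, against 14.8%) lower at P10, with a median of 0.43. At P20, 51 (22.9%, against 6.77%) were higher and 74 (33.2%, against 15.5%) lower, with a median of -0.15. The shares called higher in passaged EMM cells were thus near those of the members.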

How the data were processed

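RNA was measured by RNA-seq in 30 libraries of E14tg2a cells, 12 of a time course and 18 of a passage experiment, and each library was taken as an independent sample as the study's methods state. Per the labels, reads were aligned to mm10 with STAR and counted with featureCounts (time course) or Salmon (passage), while the study's methods name HTSeq. The deposited time-course values are whole-number counts of each gene, not normalized. Passage values were deposited by the authors as estimated counts without normalization, and 9.98% of them were not whole and were rounded. The time-course kit was not stated to keep strand, so antisense and overlapping genes are uncertain there. Columns were matched to samples by title or description.

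The members and the gene lists were chosen with earlier results of these data known, and the roles after values were seen. The time course gave members and descriptions only. Passage libraries were fitted together with edgeR 4.0.16 (R 4.3.3, limma 3.58.1), with TMM scaling, filterByExpr and the quasi-likelihood test (glmQLFit, glmQLFTest), over 16054 genes. Calls needed a log2 fold change over 1 and a Benjamini-Hochberg adjusted p under 0.01. Named members were the 12 with the largest 24 h difference at 5 CPM or more, the 12 most abundant at 24 h, the 10 largest rises and 8 largest falls of EMM against Serum/LIF at each passage without overlap, the 5 largest changes between passages in each direction, those on a list, those at the thresholds, and 6 higher in EMM than in both other media. A level at or under 3 counts in every library of a group was set to that floor for bounds, which cover counting error only. Of 27 gene lists, 4 held a member. Promoters came from RefSeq GRCm38.p6, and no interval was given for other values than the SD and SE. Replicate numbers did not pair libraries (correlations of deviations between same-numbered libraries -0.165 to 0.074). Alternatives were DESeq2 1.42.0, its size factors, library totals alone, other count filters, fits of the compared groups alone, a replicate block, leaving out single libraries, and other rules for membership.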

Additional observations from a re-analysis of the deposited data

Results flagged for a closer look

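The difference between EMM and Serum/LIF was itself different at P10 and P20 for 21 named members, by the interaction term of the edgeR model with a change over 1 and an adjusted p under 0.01 (values are the P20 log2 difference minus the P10 log2 difference). It fell for Aard (-3.13), Aox3 (-3.22), Ppp1r14d (-3.73), Nkx6-3 (-4.49), Tbx3os1 (-4.45), 2210409E12Rik (-2.85), Ptges (-2.86), Dock10 (-2.84), Pde8a (-1.99), Nqo1 (-1.94), Sfrp1 (-1.85), Gas7 (-1.83), Zadh2 (-1.27) and Plagl1 (-1.04). It rose for Krt7 (3.87), Lrrc15 (3.67), Fras1 (3.25), Bcl2 (2.81), Mbp (2.71), Sept4 (2.48) and Pax6 (2.44).

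Several of these values rest on few counts. Tbx3os1 was at or under 3 counts in each Serum/LIF library at P10, where EMM was at least 4.13-fold higher, and its call at P10 was lost without EMM replicate 1 (3.02, edgeR adjusted p = 0.0113). Its exons overlap those of Tbx3 on the other strand. 2210409E12Rik overlaps exons of Coil on the same strand, so its counts are uncertain. The change of Dock10 lost its call in 8 alternatives (-2.83 to -2.25, edgeR adjusted p = 0.0102 to 0.0234), that of 2210409E12Rik in 9 (-2.98 to -2.52), that of Tbx3os1 in 6 (-4.42 to -3.88), and that of Plagl1 in 6 (-0.997 to -0.952, below the fold threshold). Aard, Aox3, Ppp1r14d, Nkx6-3, Ptges, Pde8a, Nqo1, Sfrp1, Gas7, Zadh2, Lrrc15, Fras1, Bcl2, Mbp and Sept4 kept their call of change in the alternatives that gave a value.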

How the results depend on the processing

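Of 2385 values of named members under the alternatives, 2299 kept direction and side of the threshold, 59 fell short of it, 27 passed it newly and 0 reversed. With at least 10 counts in every library, 86 members were left: against Serum/LIF, EMM had 48 higher and 6 lower at P10 (median 1.08) and 27 higher at P20 (median 0.62), and 2i/LIF had 11 lower at P10 (median 1.17) and 16 lower at P20 (median 0.54). Against 2i/LIF, EMM then had 19 higher and 19 lower at P10 (median 0.027) and 23 higher and 17 lower at P20 (median 0.15), and 1 member changed upwards between passages; fewer members were tested in this setting. With the DESeq2 Wald test the P10 median of EMM against Serum/LIF was 1.12. With library totals alone it was 1.10 at P10 and 0.65 at P20, and the 2i/LIF median at P20 was 0.0018. With no filter it was 1.08 at P10 and 14 members changed upwards. With members chosen on TMM-scaled values, 8 were lower at P10. The filter of 10 counts removes members with low counts in any medium, so its medians are over fewer members. The cause of these moves was not tested.

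Leaving out single libraries gave medians of EMM against Serum/LIF of 1.15 to 1.25 at P10 and 0.67 to 0.78 at P20, with 72 to 79 higher and 13 to 15 lower, and 43 to 45 higher and 9 to 10 lower. For 2i/LIF the medians were 0.86 to 1.05 and 0.059 to 0.24, and the counts 64 to 72 and 24 to 28 at P10, and 39 to 44 and 31 to 36 at P20. For EMM against 2i/LIF the medians were 0.026 to 0.18 and 0.45 to 0.61, and the counts 38 to 40 and 26 to 33, and 49 to 55 and 24 to 26. Between passages, 7 to 9 members rose and 19 to 24 fell. The rule then gave 135 to 158 members. Other rules gave 124 members with TMM scaling (120 shared), 122 with a pseudocount of 1 (108 shared) and 133 with at least 2 CPM (133 shared). With the replicate number as a block, EMM against Serum/LIF had 78 higher and 14 lower at P10 and 46 and 11 at P20, and of the named members only the change of Pax6 (2.34) lost its call. Depth is a limit for the 49 members under 5 CPM at 24 h, and the size of that limit was not measured.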
